A study of Mus musculus with 4 samples.

Results

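The Notch pathway in cultured mouse myoblasts was followed through 10 genes: the receptors Notch1, Notch2 and Notch3, the ligands Dll1 and Jag1, the DNA-binding partner Rbpj, and the repressors Hes1, Hes6, Hey1 and Heyl. They were taken by their gene symbols from a deposited table of 24445 genes, and all 10 were found. The table compared primary myoblasts of wild type (WT) mice with those of Tet2 KO mice, all of strain C57BL/6, with 2 RNA-seq libraries in each genotype. Tet2 KO is a constitutive loss of Tet2, a dioxygenase of active DNA demethylation, made by removing exon 3 of the gene, so every cell of the animal lacked it and not the muscle lineage alone. Per the methods, mice were males of 8 to 10 weeks unless stated otherwise, and it was not given whether a library stood for 1 animal. Satellite cells, the stem cells of muscle, were sorted from hindlimb by surface markers (no CD45, CD11b, CD31 or Sca1, with CD34 and integrin alpha 7), and grown for at least 3 days on collagen without further treatment.

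Notch signalling passes between touching cells. A ligand of the Delta or Jagged type on 1 cell binds a Notch receptor on its neighbour, the receptor is cut by ADAM proteases and by gamma-secretase, and its inner part joins Rbpj on DNA to switch on repressors of the Hes and Hey families. In satellite cells active Notch signalling holds cells in the undifferentiated state, and it is turned down as myoblasts commit to fusion.

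The values are FPKM, in which a gene's fragments are divided by its transcript length and by the number of mapped fragments, so levels can be set side by side between genes. The table gave 1 pooled value per gene and genotype, the authors' value for the libraries of that genotype together. The values therefore show no spread between libraries and allow no replicate check or test of their own. The p-values of the authors' own comparison, which the table also held, were not used, and a difference is described only by its size. Ratios are log2((Tet2 KO FPKM + 1) / (WT FPKM + 1)) unless stated otherwise, so that changes of weakly transcribed genes appear too small. A gene is said to lie past 1.5-fold when this ratio reached 1.5-fold in either direction and the mean of both genotypes was at least 1 FPKM, a level that 11692 genes reached.

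Markers were described first. Their lists were chosen with earlier results of these data known, so the counts are no test. All 8 myoblast markers were present, among them Myod1 with 336 FPKM in WT and 313 FPKM in Tet2 KO. Pax7, with a Tet2 KO level of 98.6% of WT, differed least. By any amount 7 of the 8 were lower in Tet2 KO, against 51.2% of all genes. Their log2 ratios ran from -0.27 for Des to 0.28 for Vcam1, and they summed to 1432 FPKM in WT and 1298 FPKM in Tet2 KO. Tet2 itself had 6.64 FPKM in WT and 5.79 FPKM in Tet2 KO, a value over all exons that does not show the deleted one. All 8 markers of differentiating muscle were past 1.5-fold lower in Tet2 KO, against 2.89% of all genes. Their summed level was 1943 FPKM in WT and 753 FPKM in Tet2 KO, with log2 ratios from -1.60 for Acta1 to -0.93 for Ckm. All 10 leukocyte markers were past 1.5-fold higher, against 3.72% of all genes. Their summed level was 101 FPKM in WT and 398 FPKM in Tet2 KO, and none was at 0. The log2 ratios ran from 0.94 for Cd68 to 2.07 for Lyz2, and Ptprc, which encodes CD45, had 1.36 and 5.67 FPKM. The 8 endothelial markers summed to 5.13 FPKM in WT and 4.40 FPKM in Tet2 KO, and 1 of them, Pecam1, reached a mean of 1 FPKM. The 8 pericyte and smooth muscle markers summed to 247 and 154 FPKM, of which Acta2, also transcribed in differentiating muscle, held 236 and 146 FPKM. Of 8 fibroblast markers 6 reached a mean of 1 FPKM. All 6 were higher in Tet2 KO, where 51.2% of all genes were lower. Dcn, 1 of the 6, was past 1.5-fold higher, against 3.72% of all genes. The list summed to 438 and 474 FPKM. Most of that sum was Ly6a, which encodes Sca1, with 278 and 288 FPKM, and Col3a1, with 152 and 171 FPKM. The 6 Schwann cell markers summed to 91.8 and 64.8 FPKM, mostly Ncam1, which muscle cells also make.

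The first comparison asked how strongly each Notch gene was transcribed in these cells. Levels spanned a wide range, and their order was almost alike in the 2 genotypes. In WT the order from the top was Hes6, Rbpj, Notch2, Dll1, Hes1, Notch3, Notch1, Jag1, Hey1 and Heyl. In Tet2 KO the same order held for 8 of 10 genes, while Hes1 and Dll1 traded the fourth and the fifth place. In WT Notch2, Dll1 and Hes1 lay between 24.6 and 27.1 FPKM, and with 1 value per genotype such neighbours cannot be ordered beyond error. Hes6 stood far above the rest, and its WT level exceeded that of 96.8% of the 11692 genes. Heyl, at the low end, had a mean below 1 FPKM, so 9 of 10 genes entered the counts of genes past 1.5-fold.

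**Figure D1:**
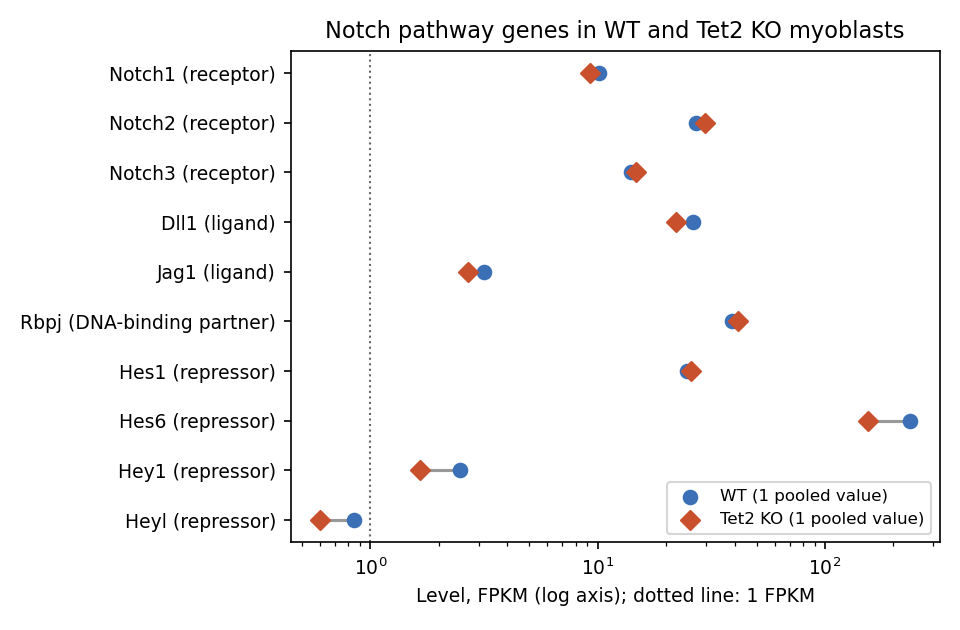
Level in FPKM (log axis) of each of the 10 Notch pathway genes in WT (circles) and Tet2 KO (diamonds), 1 pooled value per genotype, with a grey line joining the pair and a dotted line at 1 FPKM. The pairs nearly coincide for the receptors, Rbpj and Hes1, and the wider gaps belong to Hes6 (237 and 154 FPKM), Hey1 and Heyl, all with the lower value in Tet2 KO.

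The receptors differed little between genotypes. Notch2, the receptor with the highest level, lies on chromosome 3 from 97817461 to 97954290 (mm9) and had 27.1 FPKM in WT and 29.6 FPKM in Tet2 KO, a log2 ratio of 0.13. Notch3, on chromosome 17 from 32257838 to 32303797, had 14.0 FPKM in WT and 14.7 FPKM in Tet2 KO, a log2 ratio of 0.07. Notch1, on chromosome 2 from 26313422 to 26359342, had 10.2 FPKM in WT and 9.29 FPKM in Tet2 KO, a log2 ratio of -0.12. Thus the 2 more abundant receptors were slightly higher and the third slightly lower in Tet2 KO, and none came near 1.5-fold. The summed level of the receptors, Notch4 included, was 51.4 FPKM in WT and 53.8 FPKM in Tet2 KO. Notch2 made up 52.6% of it in WT and 55.1% in Tet2 KO, Notch3 27.2% and 27.4%, and Notch1 19.8% and 17.3%. Notch4, known as the receptor of endothelium, had 0.203 FPKM in WT and 0.164 FPKM in Tet2 KO, beside the low endothelial markers given above.

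Both ligands of the set were lower in Tet2 KO, by less than 1.5-fold. Dll1, a Delta-type ligand that committing myoblasts display, lies on chromosome 17 from 15504318 to 15512787 and had 26.3 FPKM in WT and 22.0 FPKM in Tet2 KO. Its log2 ratio was -0.24, and its Tet2 KO level was 83.8% of WT. Jag1, on chromosome 2 from 136907187 to 136942256, was a minor ligand, with 3.15 FPKM in WT and 2.68 FPKM in Tet2 KO and a log2 ratio of -0.18. The level of Dll1 was 8.33 times that of Jag1 in WT and 8.21 times in Tet2 KO, so the balance between them was nearly the same. The ligand with the highest level was outside the set. Jag2 had 29.5 FPKM in WT and 26.4 FPKM in Tet2 KO, a log2 ratio of -0.15, and made up 50.0% of the summed ligand level in WT and 51.7% in Tet2 KO. Dll1, Jag1 and Jag2 thus each had the lower value in Tet2 KO, as by any amount did 51.2% of all genes. The 5 Delta and Jagged genes together summed to 59.0 FPKM in WT and 51.1 FPKM in Tet2 KO. Dll4 and Dll3, and the atypical ligand Dlk1, were under 0.1 FPKM in each genotype. Dlk2, the other atypical ligand, had 15.4 and 14.7 FPKM.

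Rbpj, which carries the cut receptor onto DNA and without it represses the same genes, lies on chromosome 5 from 53947018 to 54048684. It had 39.0 FPKM in WT and 41.3 FPKM in Tet2 KO, a log2 ratio of 0.08. This value is uncertain, since 3861 bases (69.7%) of its 5541-base transcript have a copy with 99.5% identity on chromosome 6 from 46476933 to 46480794 (mm9), annotated as Rbpsuh-rs3, with which reads could be split. None of the other 9 genes had such a copy over more than 1.24% of its transcript.

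**Figure D2:**
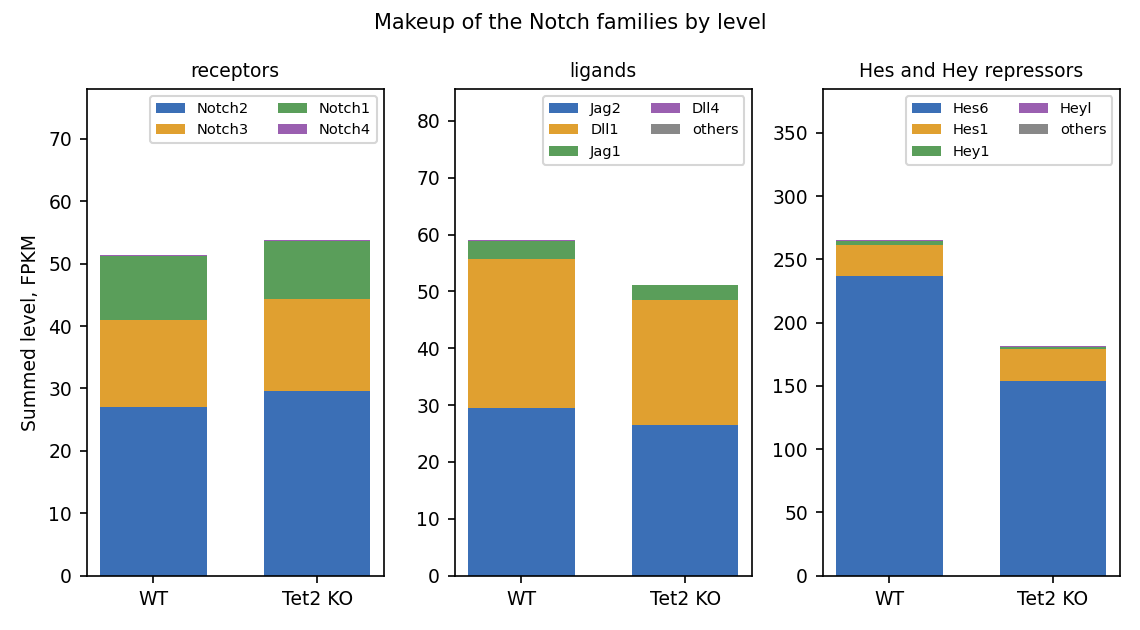
Summed FPKM of the Notch receptors, the Delta and Jagged ligands and the Hes and Hey repressors in WT and Tet2 KO, stacked by gene, with a linear axis from 0 that differs between panels. Receptor and ligand bars have nearly the same makeup in the 2 genotypes. The repressor bar is shorter in Tet2 KO (182 against 265 FPKM) through its Hes6 part, and without Hes6 it is nearly level (28.1 against 28.3 FPKM). The full bar is therefore not a measure of Notch output.

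The repressors held the largest difference of the set. Hes6 was lower in Tet2 KO and was the 1 member past 1.5-fold, Hey1 and Heyl were lower at low levels, and Hes1 was nearly level. Whether Notch drives Hes6 in these cells was not tested, so its level is not taken as a measure of Notch output. Hes6, whose product is known to hinder Hes1 and to favour muscle differentiation, lies on chromosome 1 from 93308060 to 93309799. It had 237 FPKM in WT and 154 FPKM in Tet2 KO, which is 64.9% of WT and a log2 ratio of -0.62. Only 2.63% of the 11692 genes had a lower ratio. Hes1, the classical Notch target that represses differentiation genes, lies on chromosome 16 from 30065443 to 30067882 and had 24.6 FPKM in WT and 25.6 FPKM in Tet2 KO, a log2 ratio of 0.05. The Hes6 level was therefore 9.62 times that of Hes1 in WT and 6.01 times in Tet2 KO.

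The Hey genes are targets of Notch that satellite cells need to stay quiescent. Hey1, on chromosome 3 from 8663359 to 8667038, had 2.48 FPKM in WT and 1.66 FPKM in Tet2 KO. Its log2 ratio was -0.39, and -0.58 with no pseudocount, short of 1.5-fold on either scale. Heyl, on chromosome 4 from 122910799 to 122927113, had 0.846 FPKM in WT and 0.601 FPKM in Tet2 KO, a log2 ratio of -0.21, or -0.49 with no pseudocount. Hes6, Hey1 and Heyl thus stood at 64.9%, 66.8% and 71.1% of WT, though their levels differed by a wide margin. Without Hes6 the other 8 Hes and Hey genes summed to 28.3 FPKM in WT and 28.1 FPKM in Tet2 KO, nearly all of it Hes1. Hes2, Hes3, Hes5, Hes7, Hey2 and Helt were each under 0.2 FPKM in each genotype, and Hes5 was listed at 0 in both.

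Hes6 was lower together with the markers of differentiating muscle. Myog, the transcription factor myogenin, had 554 FPKM in WT and 268 FPKM in Tet2 KO, and Hes6 had 0.428 times the Myog level in WT and 0.574 times in Tet2 KO. The log2 ratios of all 8 differentiating muscle markers were below that of Hes6. In bulk RNA, fewer cells of a type and less RNA per cell cannot be told apart. The part of the differentiated cells and of the leukocyte transcripts in the Notch values was not tested.

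How many fragments lay behind these values could be estimated from the table. In genes with a single annotated transcript, low FPKM values multiplied by transcript length fell on multiples of 1 step, 0.0177 in Tet2 KO and 0.0178 in WT. Of such genes worth up to about 5 steps, 86.9% in Tet2 KO and 86.0% in WT lay within 0.15 of a whole step, where an even spread would give 30%. The step was set from the values in a fixed range near 1 step in these same genes, so the shares are no independent check. Read as 1 fragment, the step corresponds to about 56400000 fragments for Tet2 KO and 56100000 for WT. On this scale, with the longest annotated transcript of each gene, Hes6 rested on about 18115 fragments in WT and 11833 in Tet2 KO, and its ratio with no pseudocount of -0.62 had a 95% interval from -0.66 to -0.59 for counting alone. Hey1 rested on about 277 and 186 fragments, with an interval from -0.85 to -0.31, and Heyl on about 205 and 147, with an interval from -0.80 to -0.19. Of the 10 genes, only Hes1 had an interval that held 0, from -0.04 to 0.15. These intervals cover counting error only and leave out the spread between libraries, which is usually larger, so they do not show that the genotypes differ.

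Promoter windows are shown for the members that were lower in Tet2 KO and hold the E box CAGCTG, the core bound by MyoD, and for the pathway gene with the largest difference, Neurl1a, described further on. The members' windows shown were picked by level and motif together, so they do not show that the traits go together. Windows are the 250 bases before a start site, from RefSeq on GRCm38.p6, and 7 of the 10 genes had 1 or more, 10 windows in all. Hes1, Hey1 and Heyl had none, and of these Hey1 and Heyl were lower in Tet2 KO. Capitals mark CAGCTG, whose letters read alike on both strands. The Hes6 window listed first lies before the start of its main transcripts and the second before a start farther upstream. The Dll1 window shown lies before the upstream one of its starts, and the window before the downstream one holds no CAGCTG. In the mm9 annotation the 11-exon transcript of Dll1 starts at 15512940, and the start farthest upstream, 15513836, belongs to a 3-exon transcript.
Hes6, chr1:91413223-91413472, minus strand: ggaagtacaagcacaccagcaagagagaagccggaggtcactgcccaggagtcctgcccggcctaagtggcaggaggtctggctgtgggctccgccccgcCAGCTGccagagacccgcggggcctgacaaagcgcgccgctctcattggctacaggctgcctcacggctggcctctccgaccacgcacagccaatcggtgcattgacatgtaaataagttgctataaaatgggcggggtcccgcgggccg
Hes6, chr1:91414039-91414288, minus strand: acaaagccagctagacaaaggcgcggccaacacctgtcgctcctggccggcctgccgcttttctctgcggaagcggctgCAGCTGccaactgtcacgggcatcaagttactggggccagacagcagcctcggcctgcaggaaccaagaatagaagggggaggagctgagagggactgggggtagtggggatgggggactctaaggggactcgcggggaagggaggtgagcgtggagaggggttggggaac
Dll1, chr17:15376933-15377182, minus strand: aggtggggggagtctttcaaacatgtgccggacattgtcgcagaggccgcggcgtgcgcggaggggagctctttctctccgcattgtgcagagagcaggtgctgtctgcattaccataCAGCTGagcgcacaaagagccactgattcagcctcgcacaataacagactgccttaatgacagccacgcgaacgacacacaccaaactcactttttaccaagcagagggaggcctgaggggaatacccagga
Jag1, chr2:137116521-137116770, minus strand: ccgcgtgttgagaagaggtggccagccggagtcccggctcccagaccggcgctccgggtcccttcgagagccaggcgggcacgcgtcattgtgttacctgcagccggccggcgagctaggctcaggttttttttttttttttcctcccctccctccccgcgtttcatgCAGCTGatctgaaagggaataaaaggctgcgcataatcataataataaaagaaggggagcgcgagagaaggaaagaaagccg
Neurl1a, chr19:47178570-47178819, plus strand: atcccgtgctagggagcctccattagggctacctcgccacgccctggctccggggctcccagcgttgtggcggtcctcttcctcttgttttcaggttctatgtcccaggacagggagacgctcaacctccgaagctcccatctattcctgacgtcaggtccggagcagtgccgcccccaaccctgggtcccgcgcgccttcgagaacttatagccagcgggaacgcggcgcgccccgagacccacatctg

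CAGCTG stood in 4 of the 10 windows, which belong to Hes6, Dll1 and Jag1, against 4271 of all 32851 windows of this length. In Hes6 it began at -150 and at -171 of the respective start, in Dll1 at -132 and in Jag1 at -82. The windows of Notch1, Notch2, Notch3 and Rbpj held none, and neither did the Dll1 window before its downstream start. Of these genes, Notch1 and Dll1 were lower in Tet2 KO. Neurl1a and Jag2, both lower in Tet2 KO, had no CAGCTG in their windows either. TGGGAA, the core of the Rbpj site, was found on either strand in both windows of Rbpj, which overlap, and in no window of the other members, against 21.6% of all windows. CACNAG, the N box of Hes proteins, stood in 4 windows (36.7% of all), CACGCG in 3 (7.62% of all) and CACGTG in 0 (6.02% of all). The members' windows held 12 to 34 CpG dinucleotides, where the median of all windows was 6. The lowest count, in a Hes6 window, exceeded that of 66.5% of all windows. Whether these CpG were methylated was not tested. A match of letters is a description of these windows and not a bound site.

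The next comparison set the 10 genes beside all genes of the table. Of the 9 genes with a mean of at least 1 FPKM, 1 was past 1.5-fold lower, Hes6, against 2.89% of all 11692 genes. None of the 9 was past 1.5-fold higher, against 3.72% of all genes. By any amount 5 of 9 were lower, against 51.2% of all genes. The median log2 ratio of the 9 was -0.12 and that of all genes -0.0044, but the members' median turned to 0.0525 over the 7 with a mean of at least 5 FPKM. The ratios of Notch2, Notch3, Rbpj, Hes1 and Notch1 all lay between -0.12 and 0.13, close to the middle range of all genes, whose 25th and 75th percentiles were -0.11 and 0.09.

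**Figure D3:**
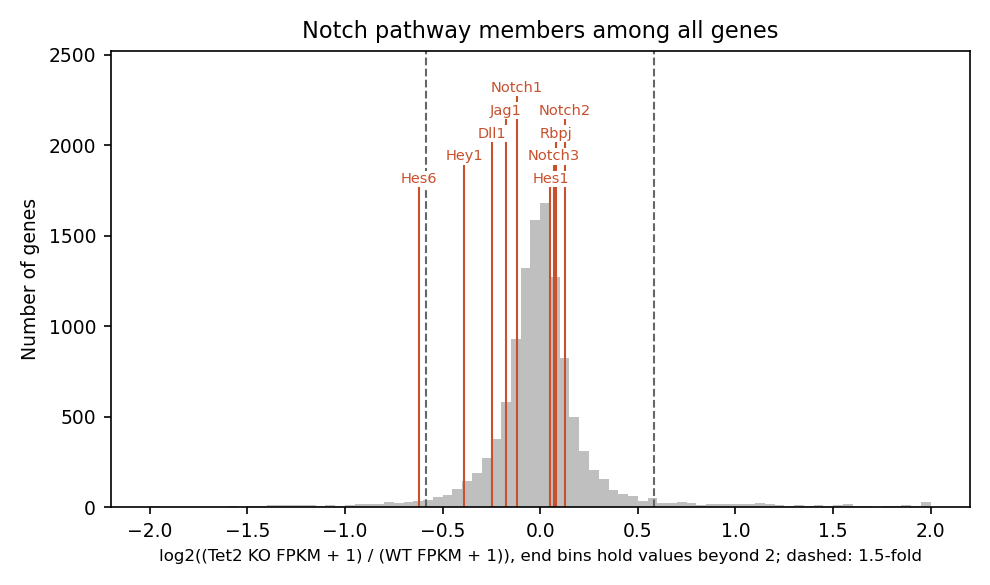
Number of genes by log2((Tet2 KO FPKM + 1) / (WT FPKM + 1)) for the 11692 genes with a mean of at least 1 FPKM (grey), with the 9 Notch members that reach this level as labelled vertical lines whose heights only separate the labels. Hes6 lies beyond the dashed line of 1.5-fold on the lower side, Hey1 is next at -0.39, and the other 7 members lie between -0.24 and 0.13.

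The wider pathway was then described through 73 further genes, of which 55 had a mean of at least 1 FPKM. Of these, 1 was past 1.5-fold lower, against 2.89% of all genes, and 0 were past it higher, against 3.72%, so the share of the list was not above that of all genes. By any amount 27 were lower and 28 higher, and their median log2 ratio was 0.00062. The gene past 1.5-fold was Neurl1a, which encodes a ubiquitin ligase known to act on Notch ligands. It lies on chromosome 19 from 47253310 to 47333931 and had 14.7 FPKM in WT and 5.14 FPKM in Tet2 KO, 35.0% of WT and a log2 ratio of -1.35, and 0.479% of all genes had a lower ratio. About 3246 fragments in WT and 1144 in Tet2 KO lay behind it.

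Among the other genes of ligand endocytosis, which lets a ligand pull on its receptor, Mib1 had 61.9 FPKM in WT and 51.8 FPKM in Tet2 KO, a log2 ratio of -0.25. Mib2 and Neurl2 had log2 ratios of -0.17 and -0.22, so all 4 genes of this role with a mean of at least 1 FPKM had their lower value in Tet2 KO. The share of all genes lower by any amount was 51.2%. The level of Mib1 was 4.22 times that of Neurl1a in WT and 10.1 times in Tet2 KO. Neurl3, below that mean, had 0.589 FPKM in WT and 1.18 FPKM in Tet2 KO.

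The enzymes that cut the receptor were nearly level. Of 10 genes 9 had a mean of at least 1 FPKM, and their log2 ratios ran from -0.11 for Psenen to 0.20 for Adam10. Adam17 had 37.3 FPKM in WT and 40.4 FPKM in Tet2 KO, and Aph1a had 24.4 and 26.1 FPKM. Aph1b and Aph1c are close paralogs and their values are uncertain.

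Glycosyltransferases tune which ligand a receptor answers to. Lfng had 7.76 FPKM in WT and 9.32 FPKM in Tet2 KO, a log2 ratio of 0.24 and the largest of the 4 with a mean of at least 1 FPKM. Poglut1 had 20.4 and 22.2 FPKM and Pofut1 17.7 and 17.0 FPKM, and Rfng, with 3.03 and 2.74 FPKM, completed them. Mfng was at 0.180 FPKM in WT and 0.437 FPKM in Tet2 KO.

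Of 11 intracellular inhibitors and genes of receptor turnover, 9 had a mean of at least 1 FPKM and ran from -0.39 to 0.20. Fbxw7, a ubiquitin ligase subunit that marks the active receptor for breakdown, was at the low end, with 11.3 FPKM in WT and 8.39 FPKM in Tet2 KO. Numb, an inhibitor of Notch in dividing satellite cells, had 7.29 and 6.51 FPKM, and Itch, a ubiquitin ligase acting with it, had 26.4 and 23.1 FPKM. The Deltex genes Dtx3l and Dtx4 had 19.6 and 22.6 FPKM, and 11.5 and 12.4 FPKM, while Dtx1 was under 0.1 FPKM. Nrarp, a direct target that feeds back on the receptor, was near 0, with 0.206 FPKM in WT and 0.248 FPKM in Tet2 KO.

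The cofactors of Rbpj were nearly level as well. The 8 coactivators ran from -0.13 for Snw1 to 0.14 for Ep300, with Kat2a at 20.6 FPKM in WT and 21.8 FPKM in Tet2 KO and Crebbp at 13.6 and 14.3 FPKM. The Mastermind genes Maml1, Maml2 and Maml3 had log2 ratios of 0.05, 0.10 and -0.11. The 14 corepressors ran from -0.21 for Cir1 to 0.21 for Spen. Hdac2, the most abundant, had 122 FPKM in WT and 118 FPKM in Tet2 KO, Ctbp1 91.2 and 93.9 FPKM, and Ctbp2 37.2 and 39.1 FPKM.

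Other genes reported to respond to Notch did not move one way. Cdkn1a, an inhibitor of the cell cycle that also rises in muscle differentiation, had 53.7 FPKM in WT and 36.2 FPKM in Tet2 KO, a log2 ratio of -0.56 that stayed short of 1.5-fold. Ccnd1, the cyclin D1 gene, had 218 FPKM in WT and 263 FPKM in Tet2 KO, a log2 ratio of 0.27. Myc had 13.6 and 16.2 FPKM, a log2 ratio of 0.23. Col5a1, a collagen gene under Notch control in quiescent satellite cells, had 11.8 and 11.2 FPKM, and Calcr, the calcitonin receptor of quiescent cells, was at 0.0159 and 0.0109 FPKM. Col5a3 had a log2 ratio of 0.24. Col6a1 and Col6a2 had means below 1 FPKM and were lower in Tet2 KO. Col6a1 had 1.17 FPKM in WT and 0.71 FPKM in Tet2 KO, and Col6a2 0.438 and 0.179 FPKM.

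**Figure D4:**
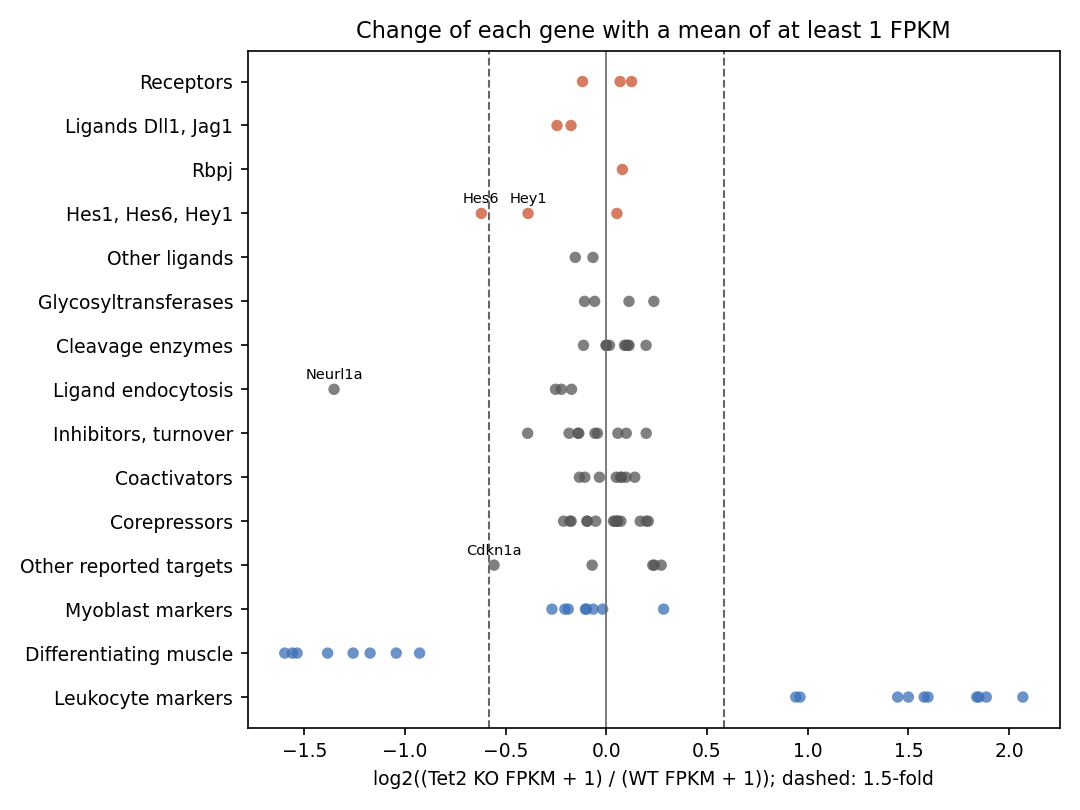
log2((Tet2 KO FPKM + 1) / (WT FPKM + 1)) of each gene with a mean of at least 1 FPKM, in 1 row per role, for Notch members (orange), further pathway genes (grey) and marker lists (blue), with dashed lines at 1.5-fold. Hes6 and Neurl1a are the Notch pathway genes beyond the lines, while the differentiating muscle markers all lie to the left of them and the leukocyte markers to the right.

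Notch1, Notch3 and Dll1 overlap exons of non-coding RNA genes on the opposite strand in the annotation, and the counting is not stated to use strand, so reads of the overlap cannot be assigned to 1 gene.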

How the data were processed

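RNA of 4 libraries, 2 of WT and 2 of Tet2 KO myoblasts, had been sequenced as read pairs from TruSeq libraries. Per the study's methods and the submitters' processing notes, the authors trimmed reads, aligned them to mm9 with TopHat2 2.0.13 and computed the deposited FPKM values with Cuffdiff 2.2.1, 1 per gene and genotype; the gene annotation and the way libraries were combined are not given in the sources used here. The table also held the authors' own comparison (a fold change, a statistic, p- and q-values), which was not used.

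From the FPKM values, log2 ratios with a pseudocount of 1 were computed for genes with a mean of at least 1 FPKM in Python 3.11.15 (numpy 2.4.6, pandas 2.3.3). No test could be made from these values, with 1 per genotype. Starts in the table were raised by 1 base. Gene structure came from GENCODE vM1 (mm9), copies from BLAST+ 2.17.0 at an identity of at least 95%. Depth was estimated from single-transcript genes over 1500 bases long, after taking 210 bases off each length for the fragment. The 210 bases were chosen to make the values near 1 fragment most alike. The count of genes past 1.5-fold and the depth estimate were tested on simulated data. The members and gene lists were chosen with earlier results of these data known. All members were named, and of other pathway genes those past 1.5-fold, the 3 with the highest level in a role, and others chosen after their values were seen. The planned comparison of protein sequences was not made. Alternatives were other pseudocounts, level limits and folds, TPM and median centring.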

Additional observations from a re-analysis of the deposited data

How the results depend on the processing

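No paired analysis was possible because the table holds 1 pooled value per genotype and none per library, and for the same reason no library could be left out. The 1 member and the 1 further pathway gene past 1.5-fold lower, Hes6 and Neurl1a, were past it also with a pseudocount of 0.1, no pseudocount, TPM, median centring, no filter and a mean of at least 5 FPKM. At 2-fold 0 members remained, Hes6 among those lost, with its ratio of -0.62. When a difference of 25% was enough, 2 members and 3 further pathway genes were past the limit, adding Hey1 (-0.39), Fbxw7 and Cdkn1a (-0.56), against 7.03% of all genes. The median log2 ratio of members turned from -0.12 to 0.0525 at a mean of at least 5 FPKM, where 7 members are left, and is no sign of direction. TPM and centring moved the median of all genes by less than 0.1. Depth is an estimate, and the spread between libraries is unknown.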
